A study of Homo sapiens with 2 samples.

Results

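RBM39, SCAF11, SUPT7L, PES1, MTO1, USP5 and DDX11 are 7 of the 84 genes on a prostate cancer qPCR panel, grouped by their accession and description because they serve RNA or protein handling, or DNA unwinding, in most cell types. Their levels were measured in 2 samples of LNCaP cells, a human prostate adenocarcinoma line. The control group and the BMI1-silenced group each gave 1 sample, which was an equal-amount pool of total RNA. The sample labels name siRNA as the silencing agent, the paper's methods name a plasmid with a short hairpin RNA, and the agent given to the control cells is not stated in the labels. The methods describe transient transfection, which leaves part of the cells without the agent. For a gene that is lower by less than 2-fold, a small fall in every cell and a larger fall in some of the cells therefore cannot be told apart. With 1 pooled sample per group there was no replicate, no test and no p-value, and the spread between cultures is unknown.

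BMI1 is a Polycomb protein of the repressive complex that marks histone H2A with ubiquitin, and silencing it is best known for raising the genes that the complex holds down. The 7 genes described here are not part of that complex. Genes for splicing, ribosome assembly, transfer RNA modification and ubiquitin recycling are used by every dividing cell, and genes of this kind usually vary little between cultures of the same line, much as reference genes do. The comparison asks whether they moved with the 5 reference genes of the plate, ACTB (cytoskeletal actin), B2M (the light chain of MHC class I), GAPDH (glycolysis), HPRT1 (purine salvage) and RPLP0 (a protein of the large ribosomal subunit).

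Relative to the mean of the 5 reference genes, 6 of the 7 genes lay within 2-fold between control and BMI1-silenced LNCaP cells, and USP5 was 40.0-fold lower in the BMI1-silenced sample. RBM39 and SUPT7L stood above that mean, PES1 and SCAF11 below it, and MTO1 and DDX11 close to it. The direction of these changes rests on the normalized table. The raw table of threshold cycles (Ct, the cycle at which a well's fluorescence crosses a set level, lower for more template) goes with the samples exchanged, and with its columns taken as named every one of these directions is turned.

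The sequences shown here are the 250 bases before the annotated start of USP5, the gene that stood apart, and of SUPT7L, the gene with the highest relative change among those for which a sequence was at hand. They come from RefSeq, build GRCh38.p14, while the deposited tables name no genome build. A sequence was found for 5 of the 7 genes, and none was used for RBM39 and MTO1. The USP5 stretch is chr12:6851900-6852149 on the plus strand and the SUPT7L stretch is chr2:27663615-27663864 on the minus strand, each written 5′ to 3′, with capitals for CCAAT or GGGCGG on either strand.
USP5: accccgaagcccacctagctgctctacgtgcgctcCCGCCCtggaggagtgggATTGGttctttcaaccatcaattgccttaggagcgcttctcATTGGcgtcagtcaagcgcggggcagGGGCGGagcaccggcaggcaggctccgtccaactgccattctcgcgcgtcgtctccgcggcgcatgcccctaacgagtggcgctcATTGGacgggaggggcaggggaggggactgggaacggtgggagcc
SUPT7L: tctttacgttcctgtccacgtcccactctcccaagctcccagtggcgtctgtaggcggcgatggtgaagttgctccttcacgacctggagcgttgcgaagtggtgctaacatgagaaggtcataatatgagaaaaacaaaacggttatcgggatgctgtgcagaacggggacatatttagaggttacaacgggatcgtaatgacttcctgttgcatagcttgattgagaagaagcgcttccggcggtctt

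CCAAT is the sequence that the factor NF-Y binds and GGGCGG is the GC box that SP1 binds. The USP5 stretch held 3 copies of CCAAT, all on its minus strand, and 2 of GGGCGG, and the SUPT7L stretch held neither. Among 35116 such stretches of RefSeq genes, 32.0% held CCAAT and 42.6% held GGGCGG on either strand. PES1 held 1 copy of CCAAT, and DDX11, which has 2 annotated starts in the table, held GGGCGG before one of them and the palindrome of the factor NRF1, found in 1.03% of all stretches, before the other. SCAF11 held none of these, and the E-box CACGTG, found in 6.34% of all stretches, was in none of the 6 stretches of the 5 genes. The GC content was 66.0% for USP5, 66.8% for SCAF11, 64.4% and 63.6% for DDX11, 50.4% for SUPT7L and 45.6% for PES1, against a median of 58.0% over all stretches. A stretch rich in CG pairs is common before broadly expressed genes, and USP5 and SCAF11 had 22 each, DDX11 25 and 20, SUPT7L 16 and PES1 6, where the median was 11. These letters are a description of the stretches, and no binding or chromatin was measured here.

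The plate was read as 96 wells, and no well held a BMI1 assay, so the silencing cannot be checked on it. Of the prostate genes that LNCaP cells are known to express, KLK3, which encodes prostate-specific antigen, was at the authors' ceiling of Ct 32 in the control sample and had a normalized value of 0.197 in the BMI1-silenced sample, and TMPRSS2 stood at 0.713 in the control and 0.653 in the BMI1-silenced sample on the same scale. All 7 genes of interest were under the ceiling in both samples. Their raw Ct values matched the normalized values within 0.001 cycles for 7 of 7 genes with the raw columns exchanged and for 0 of 7 with the columns as named, and the same held for 5 and 0 of the 5 reference genes. The 3 positive PCR control wells, which test amplification alone, had SDs of 0.359 and 0.482 cycles in the 2 raw columns, and this is the one repeated assay on the plate with a Ct under the ceiling.

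**Figure D1:**
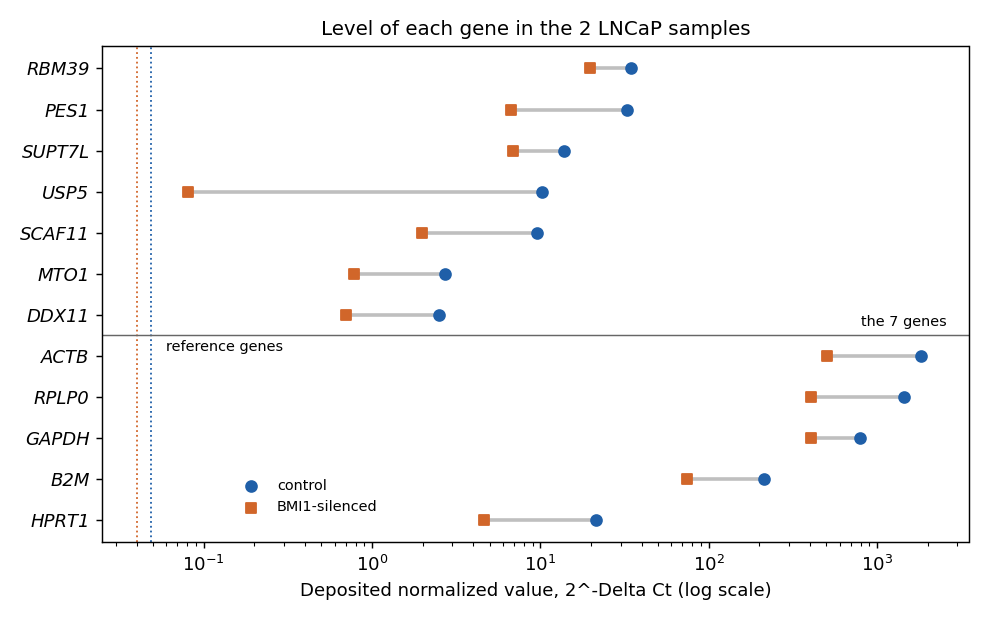
Deposited normalized value (2^-Delta Ct, log axis) of the 7 genes and the 5 reference genes in the control (circles) and BMI1-silenced (squares) sample, with a line joining the 2 values of a gene and dotted lines at the values that stand for the Ct ceiling of 32 in each sample. Every gene is lower in the BMI1-silenced sample on this scale, and USP5 alone reaches the neighbourhood of the ceiling, with 10.3 in control and 0.0804 in BMI1-silenced cells.

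RBM39 (NM_004902) encodes an RNA-binding protein with an arginine- and serine-rich stretch that takes part in splicing and acts as a coactivator of nuclear receptors. Its normalized value was 34.4 in control and 19.6 in BMI1-silenced cells, and its raw Ct was 23.1 in the column named for control and 22.5 in the other. It was the most abundant of the 7 by normalized value in both samples, at place 13 of the 84 panel genes in control and at place 7 in BMI1-silenced cells, although places also reflect how well each primer pair amplifies. Relative to the 5 reference genes its log2 change (BMI1-silenced over control) was 0.87, or 1.83-fold higher. That is the highest of the 7 changes, and 29 panel genes had a higher one.

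SCAF11 (NM_004719) encodes a factor that contacts serine- and arginine-rich splicing proteins and the tail of RNA polymerase II. Its normalized value was 9.58 in control and 1.98 in BMI1-silenced cells, with raw Ct values of 26.4 and 24.4 in the columns as named. The log2 change relative to the reference genes was -0.60, or 1.51-fold lower. The 2 splicing genes thus lay on opposite sides of the reference mean, and each stayed within 2-fold of it.

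SUPT7L (NM_014860) encodes a subunit of the human SAGA complex, a coactivator that acetylates histones at promoters. The normalized value was 13.9 in control against 6.88 in BMI1-silenced cells, and its raw Ct values were 24.6 and 23.8 in the columns as named. The log2 change relative to the reference genes was 0.66, or 1.58-fold higher, which is 0.045 below that of GAPDH. Its place among the panel genes went from 24 in control to 13 in BMI1-silenced cells. As with RBM39, this is a higher place for a gene whose deposited value is lower in BMI1-silenced cells.

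PES1 (NM_014303) encodes pescadillo, a nucleolar protein needed to process the RNA of the large ribosomal subunit. Its normalized value was 32.6 in control and 6.67 in BMI1-silenced cells, and its raw Ct values were 24.6 and 22.6 in the columns as named. The log2 change relative to the reference genes was -0.61, or 1.53-fold lower, 0.079 below that of HPRT1. It held place 14 of the 84 genes in both samples. RPLP0, the ribosomal protein gene among the references, had a log2 change of -0.17.

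MTO1 (NM_012123) encodes a mitochondrial enzyme that modifies the wobble uridine of several mitochondrial transfer RNAs. Its level, as a normalized value, was 2.70 in control and 0.786 in BMI1-silenced cells, with raw Ct values of 27.7 and 26.2 in the columns as named. The log2 change relative to the reference genes was -0.10, or 1.07-fold lower, the smallest change of the 7.

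DDX11 (NM_004399) encodes a helicase of the DEAH group that supports cohesion of sister chromatids. Its normalized value was 2.49 in control and 0.698 in BMI1-silenced cells, and its raw Ct values were 27.9 and 26.3 in the columns as named. The log2 change relative to the reference genes was -0.16, or 1.11-fold lower, 0.012 above that of RPLP0. DDX11 has a near-identical copy in the genome, DDX12P, and the primers are not given in the sources used here, so the well may have measured both. MTO1 and DDX11 were the least abundant of the 7 in control, at places 51 and 52.

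USP5 (NM_003481) encodes isopeptidase T, a deubiquitinase that takes apart free chains of ubiquitin and so returns single ubiquitin to the cell. Control cells had a normalized value of 10.3 and BMI1-silenced cells one of 0.0804, a ratio of 128 before any reference gene is taken into account. The raw Ct was 31.0 in the column named for control and 24.3 in the other, 6.72 cycles apart, whereas the other 6 genes differed by 0.528 to 2.01 cycles. Relative to the reference genes its log2 change was -5.32, or 40.0-fold lower in BMI1-silenced cells. That leaves 0.025 of the control level over all cells of the pool. Among the lines listed for transient transfection, the paper's methods give LNCaP the lowest share of transfected cells. Had untransfected cells kept their control level, the pooled level could not have fallen below their share of the pool. That share was not measured here, and how it relates to the USP5 value was not tested. In control cells USP5 was at place 27 of the 84 genes, between SUPT7L and SCAF11, and in BMI1-silenced cells it was at place 80, while the other 6 genes moved by at most 11 places.

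Among 83 panel genes that were under the ceiling in at least 1 sample, 3 had a lower change than USP5. The 2 closest to it among genes under the ceiling in both samples were NFKB1 (NM_003998), a subunit of the transcription factor NF-κB, at -5.66, and cyclin D1 (CCND1, NM_053056), which drives entry into the DNA synthesis phase, at -5.75. Closeness was the difference in log2 change between the 2 samples, 0.34 for NFKB1 and 0.43 for CCND1. The low USP5 value lay 0.996 cycles under the ceiling, and stood at 1.99 times the normalized value that the ceiling gives in that sample. The distance of USP5 from the reference mean was 11.4 times the SD of the 5 reference genes (0.47 on the log2 scale), and its distance from the next lowest of the 7 genes was 4.71. Both yardsticks describe genes, not cultures, and no repeat of the USP5 well was analysed here.

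**Figure D2:**
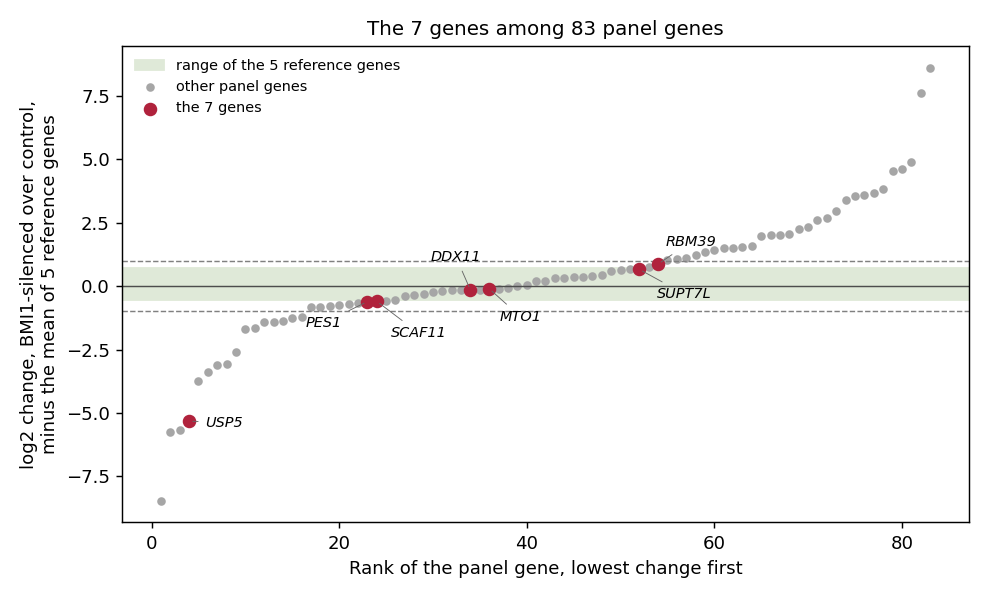
log2 change (BMI1-silenced over control, minus the mean of the 5 reference genes) of 83 panel genes in rank order, lowest first, with the 7 genes in red, the band of the 5 reference genes in green and dashed lines at 2-fold. USP5, at -5.32, is in place 4 from the bottom, and the other 6 red points lie between -0.61 and 0.87, inside the dashed lines.

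The 7 genes were next set against the range of the reference genes, whose log2 changes ran from -0.53 for HPRT1 to 0.71 for GAPDH, with ACTB at -0.18, RPLP0 at -0.17 and B2M at 0.17. SUPT7L, MTO1 and DDX11 lay inside this range. RBM39 was above it by 0.16, and SCAF11 and PES1 were below it by 0.064 and 0.079, distances smaller than the SD of the positive PCR control wells. USP5 was below it by 4.79. Thus 3 of the 7 genes were inside the range, where 31.3% of the 83 panel genes were.

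Each of the 6 genes other than USP5 was also set beside its nearest reference gene, which every gene has by construction. RBM39 and SUPT7L were nearest to GAPDH, SCAF11 and PES1 were nearest to HPRT1, and MTO1 and DDX11 were nearest to RPLP0. MTO1 and DDX11 lay almost as near to ACTB, at 0.076 and 0.021 from it, against 0.066 and 0.012 from RPLP0. These nearest genes are a description and not a grouping of the 6 genes. Over these 6 genes the log2 change had a mean of 0.011, an SD of 0.63 and a spread from lowest to highest of 1.48, against 1.24 for the 5 reference genes.

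Counted at 2-fold, 1 of the 7 genes was lower in BMI1-silenced cells, where 19.3% of the 83 panel genes were, and 0 were higher, where 34.9% were. The 6 others were within 2-fold, as were 45.8% of the panel genes. The median log2 change was -0.16 over the 7 genes, -0.13 without USP5 and 0.20 over the panel. A further list of broadly expressed genes for signalling, transcription and protein turnover had 9 of its 10 members on the panel. Of these 9, 6 were within 2-fold, 5 were inside the reference range and the median was 0.021. The 3 past 2-fold, named after their values were seen, were the transcription factor partner MAX at 1.35, the histone chaperone DAXX at 1.52 and the kinase STK11 at -1.21. The list's other deubiquitinase, USP1, was not found on the panel, so USP5 had no enzyme of its own kind to be set beside.

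Taken as deposited, with no reference gene subtracted, all 7 genes and all 5 reference genes were lower in BMI1-silenced cells. On that scale 6 of the 7 were at least 2-fold lower, where 62.7% of the panel genes were, and so were 4 of the 5 reference genes. RBM39, at a log2 ratio of -0.81, and GAPDH, at -0.97, were the exceptions. The positive PCR control wells had log2 ratios of -0.47, -0.47 and -0.13 on the same scale. The mean log2 ratio of the reference genes was -1.68, and the part of RNA input or reverse transcription in this shift was not tested. The wells named as reverse transcription controls were past the ceiling in both samples, with raw Ct values from 41.6 to 44.5. They therefore give no measure of that step here.

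**Figure D3:**
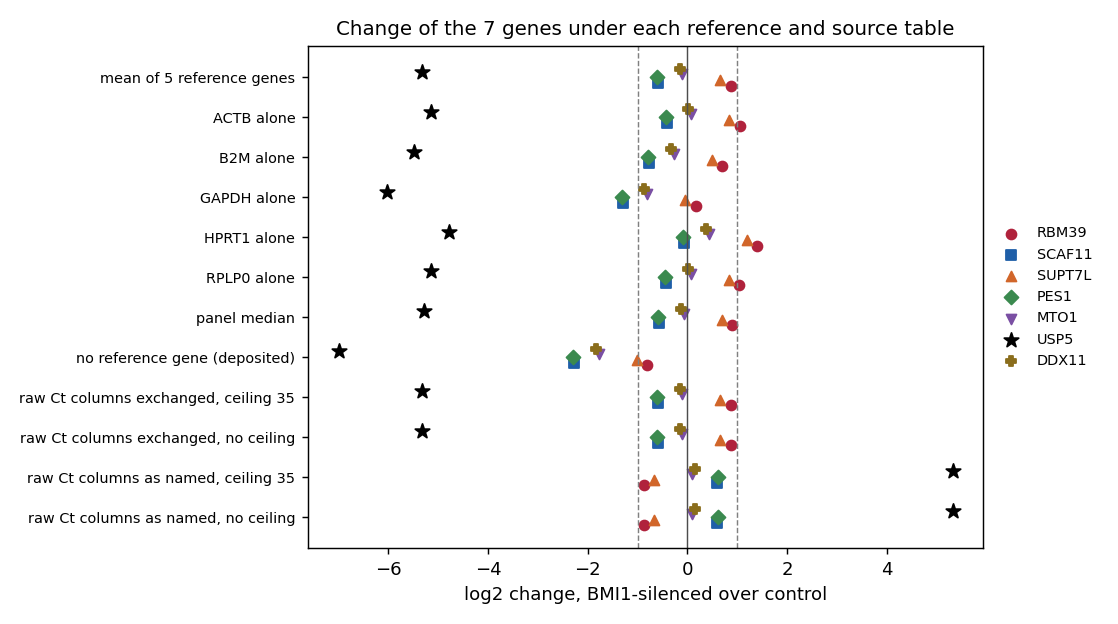
log2 change (BMI1-silenced over control) of the 7 genes with the mean of 5 reference genes, with each reference gene alone, with the panel median, with no reference gene, and from raw Ct values with the columns exchanged or as named; dashed lines mark 2-fold. USP5 stays apart from the other 6 in every row. It lies from -7.00 to -4.79 in the first 10 and at 5.32 in the 2 with the columns as named. All rows come from the same wells, so they are not separate measurements.

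The choice of reference moved all 7 genes by the same amount, so it changed their side of 2-fold but not their order. Over the 10 ways of computing the change that keep the normalized table's samples, SCAF11 ran from -2.27 to -0.06 and PES1 from -2.29 to -0.08, both below 0 throughout. RBM39 ran from -0.81 to 1.40, SUPT7L from -1.02 to 1.19, MTO1 from -1.78 to 0.43 and DDX11 from -1.84 to 0.38, so the sign of these 4 depended on the reference. USP5 ran from -7.00 to -4.79 and was more than 2-fold lower in each. These ways are not separate measurements. Those from raw Ct values with the columns exchanged repeat the main values by construction, and the others differ from them by one constant. With the raw columns as named USP5 was at 5.32, that is, higher in BMI1-silenced cells.

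The accession that the table lists for each gene is 1 of the RefSeq protein-coding transcripts of that gene, of which there were 19 for DDX11, 7 for RBM39, 6 for USP5, 5 for SUPT7L, 4 for PES1, 3 for MTO1 and 1 for SCAF11. Which of them a primer pair amplifies is not given in the sources used here. USP5, SCAF11 and DDX11 all lie on chromosome 12, and among them USP5 alone was past 2-fold.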

How the data were processed

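Total RNA, pooled within control and within BMI1-silenced LNCaP cells, was measured by the authors on a SYBR Green qPCR plate (1 microgram of RNA, 45 cycles) and analysed with the vendor's software, whose version, threshold and reference genes are not given in the sources used here. The deposited tables of the authors hold the raw Ct, the normalized value (2^-Delta Ct, a ratio to a reference Ct of each sample, with a Ct above 32 set to 32) and the authors' own fold change, of which the header alone was read. Column names were tied to the samples through that header.

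For each gene, log2 of the normalized BMI1-silenced over control value was taken less the mean of that value over the 5 reference genes (ACTB, B2M, GAPDH, HPRT1, RPLP0). One panel gene at the ceiling in both samples was left out, which leaves 83. Symbols came from accessions in RefSeq GRCh38.p14 (88 of 89 matched). The computation was tested on artificial Ct values with known changes. Depth does not apply to Ct values. The members, lists and alternatives were chosen with earlier results of these data known. Genes named were the 7, the reference genes, the 2 closest to the member with the largest change and, after their values were seen, those stated in the text; certain marker genes are not reported here. Alternatives were other reference genes, raw Ct values, and thresholds of 1.5-fold and 4-fold. Python 3.11.15, numpy 2.4.6 and matplotlib 3.10.9 were used.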

Additional observations from a re-analysis of the deposited data

How the results depend on the processing

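A log2 value counted as moved when it shifted by more than 0.47, the SD of the reference genes, and a count when it shifted by more than 1.5 times. Nothing moved with B2M alone, with the panel median or at a 4-fold threshold. The same held for the panel shares over genes under Ct 30. Raw Ct values with the columns exchanged repeat the main values by construction, so they did not move either.

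With ACTB alone or RPLP0 alone, 1 of the 7 genes was at least 2-fold higher, against 0. With GAPDH alone the log2 changes were 0.16 for RBM39, -1.30 for SCAF11, -0.045 for SUPT7L, -1.32 for PES1, -0.81 for MTO1, -6.03 for USP5 and -0.86 for DDX11, which is also the median, and 3 genes were at least 2-fold lower. With HPRT1 alone they were 1.40, -0.064, 1.19, -0.079, 0.43, -4.79 and 0.38 in the same order, the median was 0.38 and 2 genes were at least 2-fold higher. With no reference gene they were -0.81, -2.27, -1.02, -2.29, -1.78, -7.00 and -1.84, the median was -1.84, 6 genes were at least 2-fold lower and 1 was within. Each of these settings shifts all genes by one amount by construction. At 1.5-fold, 3 genes were lower, 2 higher and 2 within.

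With the raw columns as named, at a ceiling of 35 and with none, RBM39 was at -0.87, SCAF11 at 0.60, SUPT7L at -0.66, PES1 at 0.61 and USP5 at 5.32, so that 0 genes were at least 2-fold lower and 1 was higher. The choice of control column alone sets this turn.

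The median without USP5 was added after seeing the data. No paired analysis was possible because there was 1 sample in each group, and leaving out a replicate was likewise not possible. No setting shows the spread between cultures, and USP5 lay near the last cycle that the normalized table resolves.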
